A study of Homo sapiens with 6 samples.

Results

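Genes named after a neighbour with the ending -AS and a digit are as a rule annotated on the strand opposite to that neighbour. Of 1769 such rows in the gene table, 615 averaged 20 or more normalized counts across the 6 libraries and are the members described here, out of 61859 genes in all. Of the rest, 488 rows had no read in any sample and 666 had reads but a mean below 20. The 615 members carry 612 different names, because RAET1E-AS1, DNAJC9-AS1 and ITFG2-AS1 each stand on 2 rows with different gene IDs. For 610 members the gene named before the ending, called the sense partner here, was also in the table. These partners are 593 genes, and 34 members share 17 partners, so those pairs are not independent of each other. The members were chosen by this average over both groups, and the difference between the groups was not used.

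The cells were OSC19SSZR, an oral squamous cell carcinoma line made resistant to sulfasalazine, a drug that blocks the cystine transporter SLC7A11. The line was transfected with siRNA against FOXA1, a forkhead transcription factor that opens closed chromatin, or with control siRNA. Total RNA was taken 48 h later. There were 3 FOXA1 siRNA samples and 3 control siRNA samples, all of the same resistant line, so every comparison is within the resistant state. The labels do not say whether replicates were separate cultures, so a p-value here sets a difference against the spread of these libraries alone, which may be technical.

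FOXA1 itself had normalized counts of 247, 192 and 189 in the FOXA1 siRNA samples, against 1477, 1378 and 1459 in the control siRNA samples, which put it at 14.5% of the control mean. The libraries held 16510125 to 25732569 reads in the FOXA1 siRNA group and 17286040 to 19233157 in the control siRNA group. All 10 squamous epithelial markers were at a mean of at least 10, with summed counts of 86370.4 to 89519 in FOXA1 siRNA samples and 77313 to 81360.0 in control siRNA samples. Of 5 fibroblast markers, COL1A1 alone reached a mean of 10 (summed counts 90.1 to 135 in FOXA1 siRNA samples and 144 to 162 in control siRNA samples), with DCN, LUM and PDGFRA at 0. No immune marker of 5 reached it (2.14 to 7.59 in FOXA1 siRNA samples and 9.41 to 12.4 in control siRNA samples). CDH5 was the one of 3 endothelial markers that did (279 to 302 in FOXA1 siRNA samples and 542 to 571 in control siRNA samples), and the part of these markers in the results was not tested.

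Antisense transcripts are mostly long noncoding RNAs. They start at or near the promoter of the sense gene and run away from it, start inside it, or run into it from its far end. Some are known to act on the chromatin or on the RNA of the gene they overlap, and many are by-products of open promoters that the nuclear exosome degrades. Where antisense and sense exons overlap, a read from the shared stretch can be assigned only if the library recorded which strand it came from. The kit is named in the labels, but whether strand was kept and how reads were counted is not given in the sources used here, so reads of overlapping antisense and sense exons cannot be told apart.

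The annotation used for position was GENCODE 29 on GRCh38, which holds 614 of the 615 members, 503 of them as antisense genes, 49 as lincRNAs and 47 as processed transcripts. In 170 pairs the antisense gene lay inside the sense gene. In 243 pairs both overlapped head to head, with the 2 starts inside the overlap, and in 127 they overlapped tail to tail. The sense gene lay inside the antisense gene in 43 pairs. In 17 pairs the genes did not overlap and started within 1 kb of each other, facing away (divergent). In 512 pairs at least 1 exon base was shared by both genes, and in 97 none was.

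The read counts showed how closely some members followed their partners, and MIF-AS1 and MIF were the extreme case. MIF encodes macrophage migration inhibitory factor, a cytokine. MIF-AS1 (chr22:23894426-23898930, minus strand, tail to tail with MIF, 46.5% of its exon bases inside MIF exons) had 8948, 13687 and 7366 reads in the FOXA1 siRNA samples and 8487, 7543 and 7384 in the control siRNA samples. MIF had 8949, 13690 and 7367 reads in the FOXA1 siRNA samples and 8492, 7539 and 7384 in the control siRNA samples. The 2 genes thus differed by 0 to 5 reads in any library.

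To put this scatter on a scale, the variance of the log ratio of antisense to sense reads within the groups was divided by the variance that independent counting gives. A value near 1 is the size counting gives, and a value near 0 means that both counts moved together read for read. It could be computed for the 567 pairs with at least 5 antisense and 10 sense reads in every sample. MIF-AS1 had 0.000637, the next lowest was 0.033 for GJD3-AS1, and the median was 1.11. A single value rests on 6 libraries and varies widely by counting alone, so among the low ones only that of MIF-AS1 is read here. Counts of MIF-AS1 are thus not separable from those of MIF, and the pair stays in the counts of calls and of pairs below.

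Of the other 5 most abundant members, 4 are given here by their share of the partner's reads. RPL30-AS1, beside the ribosomal protein gene RPL30, stood at 84.8 to 86.8% of RPL30 reads over the 6 libraries. PCBP1-AS1 stood at 87.3 to 92.0% of the reads of PCBP1, which encodes an RNA-binding protein, and PRMT5-AS1 at 72.9 to 76.2% of those of PRMT5, an arginine methyltransferase. For ALDH1A3-AS1 the range was 60.9 to 63.5% of ALDH1A3, a retinaldehyde dehydrogenase. Their ratio spread was 0.211 to 1.26, against 0.000637 for MIF-AS1. At such depth counting adds little scatter to a share, and what part of these reads is common to both genes was not tested. Such shares are of reads and not of level per length. Per kb of exon, 228 of 603 members with lengths and a detected partner had a higher count than the partner.

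**Figure D1:**
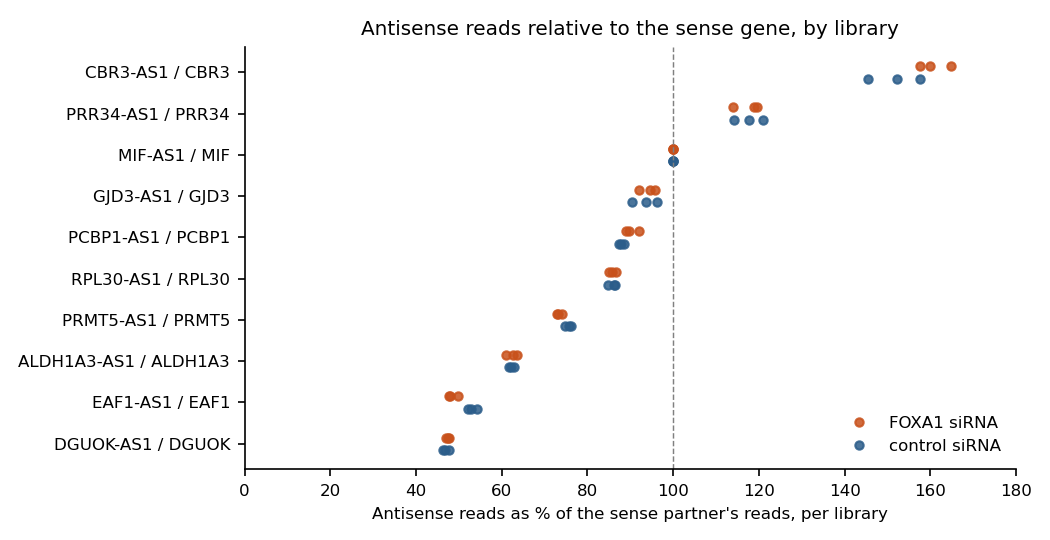
Reads of 10 antisense members as a percentage of the reads of the sense partner (x axis), 1 point per library, FOXA1 siRNA in orange above control siRNA in blue. Of the 6 most abundant members 5 are drawn, with the 6 with the least scatter for their depth, MIF-AS1 being both, and its 6 points lie between 99.9 and 100% of MIF, at the dashed line.

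Of the 615 members, 262 (42.6%) passed limma's test at an adjusted p under 0.05, 104 higher and 158 lower in FOXA1 siRNA samples. Among all 18460 genes tested 51.8% passed, 26.8% higher and 25% lower, and restricted to means of 20 or more it was 55.2%. The members' share was below both of these shares, which were not matched for level. Among the members 31.5% were called at a mean of 20 to 50 and 73.1% at 1000 or more. The part of level in the difference was not tested. The members' median log2 fold change was -0.04, against 0.00 over all genes tested. Groups did not overlap for 292 members, against 57.6% of all genes tested. The split between higher and lower calls depended on scaling. It was 73 higher and 194 lower with all libraries set to equal totals, and 141 higher and 118 lower with quantile normalization, where the sign of the members' median turned to 0.05. The authors' deposited table gives an adjusted p below 0.05 to 179 members, 70 of them higher and 109 lower. All 179 were called by limma in the same direction.

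Calls were also counted by level. Of 178 members with a mean of 20 to 50, 11 were higher and 45 lower. Of 254 with a mean of 50 to 200, 35 were higher and 69 lower, and of 157 with a mean of 200 to 1000, 46 were higher and 37 lower. Of the 26 members at 1000 or more, 12 were higher and 7 lower. Quantile normalization gave 21 higher and 26 lower in the lowest range and turned the order in the next, to 68 higher and 48 lower. Equal totals turned it in the upper 2 ranges, to 30 higher and 49 lower and to 9 higher and 11 lower, and quantile normalization also turned the highest, to 8 higher and 10 lower. Only in the lowest range were lower calls more numerous under all 3 scalings, with 7 higher and 52 lower at equal totals. All genes tested were not counted in these ranges, so whether the lean is particular to the members was not tested. The median log2 fold change over all genes was -0.04 with no filter and 0.03 at a mean of at least 50. Summed over the members, antisense counts were 0.906, 0.889 and 0.875% of all normalized counts in the FOXA1 siRNA samples, against 0.980, 0.980 and 0.978% in the control siRNA samples, and these groups did not overlap. The difference of the means was -0.0892 percentage points with all members and -0.0435 without ALDH1A3-AS1. Without that member, an alternative added after the data were seen, the shares were 0.872, 0.854 and 0.843% in the FOXA1 siRNA samples, against 0.902, 0.899 and 0.899% in the control siRNA samples. The summed normalized counts without it were higher in the FOXA1 siRNA samples, at 167186, 166709 and 165018, against 164943, 162480.0 and 162475 in the control siRNA samples. What part of these sums is reads common to a member and its partner was not tested.

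Among members that rose, SHROOM3-AS1 (chr4:76756960-76758474, minus strand, inside SHROOM3) had the largest change. SHROOM3 encodes an actin-binding protein that drives apical constriction of epithelial cells. SHROOM3-AS1 had normalized counts of 61.1, 53.1 and 78.3 in the FOXA1 siRNA samples, against 17.1, 28.2 and 40.8 in the control siRNA samples. The lowest FOXA1 siRNA sample was above the highest control siRNA sample (log2 fold change 1.20 ± 0.26, adjusted p = 0.000483). SHROOM3 moved alike, with 426, 433 and 471 in the FOXA1 siRNA samples, against 179.7, 203 and 205 in the control siRNA samples (1.17, adjusted p = 2.66e-11). The pair shares no exon base in the annotation used. Whether reads of SHROOM3 from outside its exons were counted to SHROOM3-AS1 was not tested.

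SCEL-AS1 (chr13:77599755-77606551, minus strand) lies inside SCEL, the gene of sciellin, a precursor of the cornified envelope of squamous epithelium. It had 75.03, 59.95 and 67.6 in the FOXA1 siRNA samples, against 31.4, 32.3 and 30.3 in the control siRNA samples (log2 fold change 1.08 ± 0.21, adjusted p = 7.95e-05). All 3 FOXA1 siRNA values were well above every control siRNA value. SCEL had 658, 633 and 712 in the FOXA1 siRNA samples, against 329, 339 and 291 in the control siRNA samples (1.06, adjusted p = 1.47e-11). DIAPH3-AS1, inside the gene of a formin that nucleates actin filaments, had 48.2, 46.3 and 68.8 in the FOXA1 siRNA samples, against 24.7, 31.3 and 26.2 in the control siRNA samples (log2 fold change 0.95 ± 0.24, adjusted p = 0.00131), and DIAPH3 rose with it (1.10, adjusted p = 9.14e-12). The groups did not overlap for either gene.

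EMC3-AS1 is 1 of 12 members that were called higher while a tested partner was not called. It lies inside EMC3, a subunit of the endoplasmic reticulum membrane protein complex (chr3:9986893-10006990, plus strand). EMC3-AS1 had 192, 149 and 159 in the FOXA1 siRNA samples, against 90.3, 87.8 and 79.5 in the control siRNA samples (log2 fold change 0.94 ± 0.14, adjusted p = 2.27e-06). EMC3 had 870.4, 888 and 834 in the FOXA1 siRNA samples, against 816, 850.4 and 819 in the control siRNA samples, groups that overlapped (0.06, adjusted p = 0.448, with the sign turning to -0.04 at equal library totals). The annotation holds EMC3-AS1 as a transcribed unprocessed pseudogene and places 6.14% of its exon bases in EMC3 exons.

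SLC16A1-AS1 starts 598 bases from SLC16A1, the gene of the lactate transporter MCT1, and overlaps it head to head (chr1:112956415-113047055, plus strand). It had 129, 111 and 113 in the FOXA1 siRNA samples, against 64.7, 67.6 and 72.2 in the control siRNA samples (log2 fold change 0.77 ± 0.15, adjusted p = 0.000121). SLC16A1 rose further, with 4145, 4136 and 4400.4 in the FOXA1 siRNA samples, against 1316, 1272 and 1304 in the control siRNA samples (1.70, adjusted p = 4.04e-20). The antisense gene thus rose by less than its partner and held 3.34% of its read number over all samples. MAL2-AS1, tail to tail with MAL2, a membrane protein needed for transcytosis in epithelia, had 1325, 1278 and 1411 in the FOXA1 siRNA samples, against 790.3, 765 and 741 in the control siRNA samples (log2 fold change 0.80 ± 0.06, adjusted p = 1.66e-11). MAL2 rose by a similar amount (0.88, adjusted p = 1.46e-14).

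The other 6 of the 12 largest rises ranged from 0.77 to 0.95 on the log2 scale. SNRK-AS1 (0.77, adjusted p = 0.00443) rose with SNRK (0.75, adjusted p = 4.98e-05), an AMPK-related kinase. ZNF232-AS1 (0.79, adjusted p = 0.00132) and PROSER2-AS1 (0.84, adjusted p = 0.000304) rose, with ZNF232 at 0.35, adjusted p = 0.00872 and PROSER2 at 0.35, adjusted p = 0.0244. ZNF232 was not called at equal totals (adjusted p = 0.0547), nor was PROSER2 (adjusted p = 0.116). PROSER2 was also not called without FOXA1 siRNA replicate 1 or 2 (adjusted p = 0.0828 and 0.0771) or without control siRNA replicate 1 or 2 (0.0752 and 0.0907).

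PTPRG-AS1 (0.95, adjusted p = 0.00891), RORA-AS1 (0.81, adjusted p = 0.0306) and FOXD2-AS1 (0.78, adjusted p = 0.0123) rose beside low partners that were not called. PTPRG, a receptor-type tyrosine phosphatase, had 1.16, adjusted p = 0.083. RORA, a nuclear receptor, had 0.32, adjusted p = 0.292, and FOXD2, another forkhead factor, had 0.61, adjusted p = 0.231. PTPRG was called without FOXA1 siRNA replicate 3 (adjusted p = 0.0148), without control siRNA replicate 1 (0.0163) and with quantile normalization (0.0311). FOXD2 was called without FOXA1 siRNA replicate 3 (0.0312). RORA-AS1 lost its call without FOXA1 siRNA replicate 2 or 3 (0.142 and 0.11), without control siRNA replicate 2 or 3 (0.0897 and 0.0636) and at equal totals (0.0552). FOXD2-AS1 lost it without FOXA1 siRNA replicate 1 (0.0556) or control siRNA replicate 3 (0.0734).

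**Figure D2:**
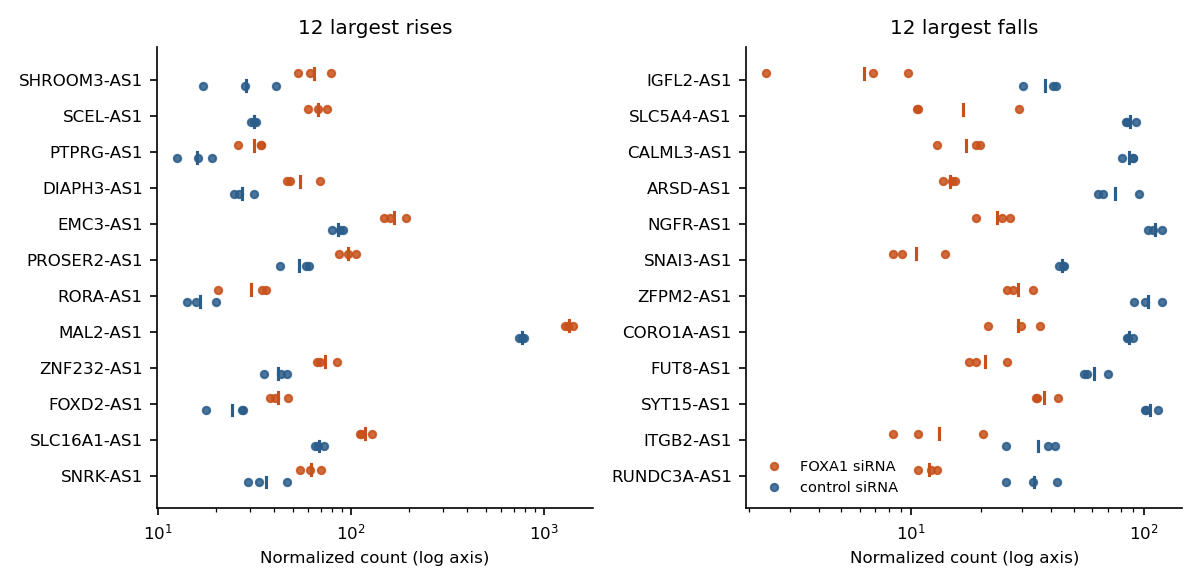
Normalized counts (log x axis) of the 12 members with the largest rises and the 12 with the largest falls among called members whose groups did not overlap. Each point is a library, each short line a group mean, FOXA1 siRNA in orange above control siRNA in blue; the falls reach larger fold changes (-2.55 on the log2 scale) than the rises (1.20).

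The largest falls exceeded the largest rises. IGFL2-AS1 (chr19:46189166-46203083, minus strand) had normalized counts of 9.65, 6.83 and 2.37 in the FOXA1 siRNA samples, against 40.9, 30.3 and 41.8 in the control siRNA samples, so every FOXA1 siRNA sample was below every control siRNA sample (log2 fold change -2.55 ± 0.40, adjusted p = 4.88e-06). IGFL2, of the IGF-like family, lies 59977 bases away between starts and had reads in 1 control siRNA sample alone, so it was not tested. SLC5A4-AS1, which spans SLC5A4, a gene of the sodium and glucose cotransporter family, had 28.9, 10.6 and 10.7 in the FOXA1 siRNA samples, against 83.7, 92.8 and 84.7 in the control siRNA samples (log2 fold change -2.46 ± 0.30, adjusted p = 5.48e-07). SLC5A4 itself, with 4.29, 0.759 and 2.37 in the FOXA1 siRNA samples, against 4.76, 5.04 and 11.5 in the control siRNA samples, was too low to be tested.

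CALML3-AS1 (chr10:5514244-5526246, minus strand) overlaps CALML3, a calmodulin-like gene of epithelial cells, head to head. It had 12.9, 19.7 and 18.98 in the FOXA1 siRNA samples, against 80.8, 89.8 and 89.96 in the control siRNA samples (log2 fold change -2.29 ± 0.23, adjusted p = 3.34e-09). CALML3 had 4.29, 8.35 and 7.12 in the FOXA1 siRNA samples, against 57.1, 43.4 and 77.4 in the control siRNA samples (-2.99, adjusted p = 1.46e-08). Both genes were lower in all 3 FOXA1 siRNA samples, and the sense gene by more.

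NGFR-AS1 (chr17:49505657-49574064, minus strand) runs tail to tail into NGFR, the gene of the neurotrophin receptor p75, which marks basal epithelial cells. It had 24.7, 26.6 and 18.98 in the FOXA1 siRNA samples, against 109, 105 and 120.3 in the control siRNA samples (log2 fold change -2.22 ± 0.20, adjusted p = 4.72e-10). NGFR had 219, 251 and 222 in the FOXA1 siRNA samples, against 1022, 1001 and 1090.0 in the control siRNA samples (-2.17, adjusted p = 2.53e-18). Both fell by nearly the same factor, and NGFR-AS1 held 10.7% of the NGFR read number. ARSD-AS1, inside the arylsulfatase D gene with 100% of its exon bases in ARSD exons, had 15.01, 13.7 and 15.4 in the FOXA1 siRNA samples, against 63.7, 66.6 and 95.2 in the control siRNA samples (log2 fold change -2.26 ± 0.25, adjusted p = 1.36e-08), and ARSD had -1.79, adjusted p = 1.80e-12. Groups did not overlap in either gene. As all exon bases of ARSD-AS1 are shared, its reads cannot be told apart from those of ARSD.

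CORO1A-AS1 (-1.58, adjusted p = 4.58e-07) fell with CORO1A (-1.55, adjusted p = 1.72e-13), an actin-binding coronin, FUT8-AS1 (-1.51, adjusted p = 6.36e-06) with FUT8 (-1.25, adjusted p = 8.84e-16), which adds core fucose to N-glycans, and SYT15-AS1 (-1.49, adjusted p = 8.69e-08) with SYT15 (-1.21, adjusted p = 6.27e-07), of the synaptotagmin family. The first 2 have 66.7% and 54.2% of their exon bases in the partner's exons, and SYT15-AS1 has none. What part of the reads of CORO1A-AS1 and FUT8-AS1 is common to the partner was not tested. ITGB2-AS1 (-1.42, adjusted p = 0.000822) fell beside ITGB2, the leukocyte integrin beta 2 gene (-0.78, adjusted p = 0.0197). ITGB2 lost its call without FOXA1 siRNA replicate 2 or 3 (adjusted p = 0.0538 and 0.0743), without control siRNA replicate 1 or 2 (0.0553 and 0.0918) and with quantile normalization (0.087).

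In 3 of the 12 largest falls the partner was measured and not called. SNAI3-AS1 had 13.9, 9.11 and 8.30 in the FOXA1 siRNA samples, against 45.6, 43.4 and 44.98 in the control siRNA samples (log2 fold change -2.03 ± 0.30, adjusted p = 2.27e-06), while SNAI3, of the Snail repressor family, had 20.4, 18.97 and 16.6 in the FOXA1 siRNA samples, against 35.2, 17.1 and 48.1 in the control siRNA samples (-0.70, adjusted p = 0.0716). Only the antisense groups were apart. RUNDC3A-AS1 had 12.9, 12.1 and 10.7 in the FOXA1 siRNA samples, against 25.7, 42.4 and 33.5 in the control siRNA samples (log2 fold change -1.41 ± 0.31, adjusted p = 0.000423), and RUNDC3A had 26.8, 16.7 and 22.5 in the FOXA1 siRNA samples, against 15.2, 25.2 and 18.8 in the control siRNA samples (0.15, adjusted p = 0.714). ZFPM2-AS1 had 25.7, 33.4 and 27.3 in the FOXA1 siRNA samples, against 102, 90.8 and 120.3 in the control siRNA samples (log2 fold change -1.82 ± 0.20, adjusted p = 1.19e-08), and ZFPM2, a cofactor of GATA factors, had -0.67, adjusted p = 0.0731. SNAI3 was called without control siRNA replicate 2 (adjusted p = 0.00488) and, like ZFPM2, at equal totals (0.0442 and 0.043). RUNDC3A turned to -0.01 without control siRNA replicate 1.

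Antisense and sense genes moved together in most pairs where both were called. Of 576 pairs with both genes tested, 204 had both called, 191 of them in the same direction (88 both higher, 103 both lower) and 13 in opposite directions. The antisense gene alone was called in 43 pairs, the sense gene alone in 157 and neither in 172. Of 560 distinct tested partners 348 were called, 62.1%, with 31.2% higher and 30.9% lower. The median count was 103 for the members and 661 for the partners in the pairs, the called share of members was 31.5% at a mean of 20 to 50 and 73.1% at 1000 or more, and the difference between members and partners was not tested. Over the 576 pairs, Pearson's r between both log2 fold changes was 0.74 and Spearman's rho 0.72, as a description, since the points share libraries and, where exons overlap, possibly reads.

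Calls in the same direction were more uniform where more of the antisense exon bases lie in exons of the partner. Of the pairs with a shared share above 50%, 28 were called in the same direction and 0 in opposite directions (r = 0.92 over 72 tested pairs). From 25 to 50% the numbers were 42 and 0 (r = 0.89 over 108), and from above 0 to 25% they were 98 and 8 (r = 0.71 over 312). With no shared exon base they were 23 and 5 (r = 0.53 over 83 tested pairs). All 13 opposite pairs thus had at most 25% shared. Of the 97 members without shared exon bases 44.3% were called, against 51.8% of all genes tested (26.8% higher and 25% lower). These members were lower more often than higher, 36 against 7, and this held at 39 against 4 with equal totals and 25 against 11 with quantile normalization. Their counts were lower too, with a median of 58.6 against 118 for members with shared bases, and the part of level in this was not tested.

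**Figure D3:**
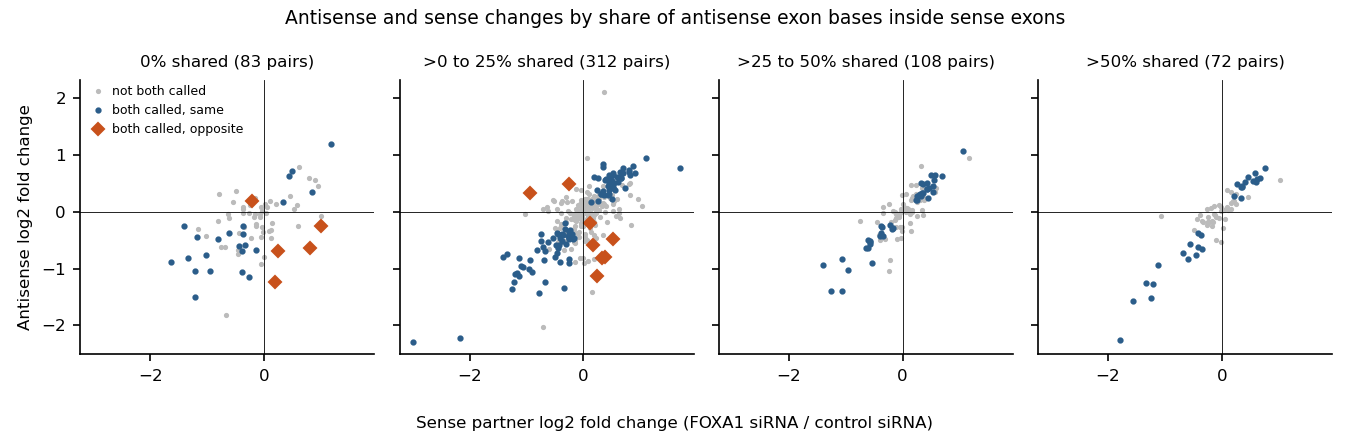
Log2 fold change of the antisense member (y axis) against that of its sense partner (x axis), FOXA1 siRNA over control siRNA, in 4 panels by the share of the member's exon bases that lie in exons of the partner. Blue points are pairs with both called in the same direction and orange diamonds pairs called in opposite directions, which occur in the 2 left panels (5 and 8) and not in the 2 right ones.

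Calls were also counted by orientation. Among pairs with the antisense gene inside the sense gene, 65 moved the same way and 2 in opposite ways. Tail to tail it was 49 and 1, head to head 63 and 7, and for a sense gene inside the antisense gene 9 and 0. The 17 divergent pairs had 4 and 3. Of the members, 41 were higher and 36 lower inside the sense gene, 31 and 31 tail to tail, 29 and 64 head to head, 2 and 13 around the sense gene, and 0 and 9 in divergent pairs. In the same order 45.3% of 170, 48.8% of 127, 38.3% of 243, 34.9% of 43 and 52.9% of 17 members were called. Of all genes tested 51.8% were called, 26.8% higher and 25% lower. The head to head split became 20 and 82 at equal totals and 43 and 40 with quantile normalization, that inside the sense gene 31 and 44 at equal totals and 53 and 31 with quantile normalization, and the divergent one 0 and 10 at equal totals and 1 and 5 with quantile normalization. Tail to tail, 20 were higher and 36 lower at equal totals and 37 higher and 26 lower with quantile normalization. No difference between the classes was tested, since they were compared with the results known.

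**Figure D4:**
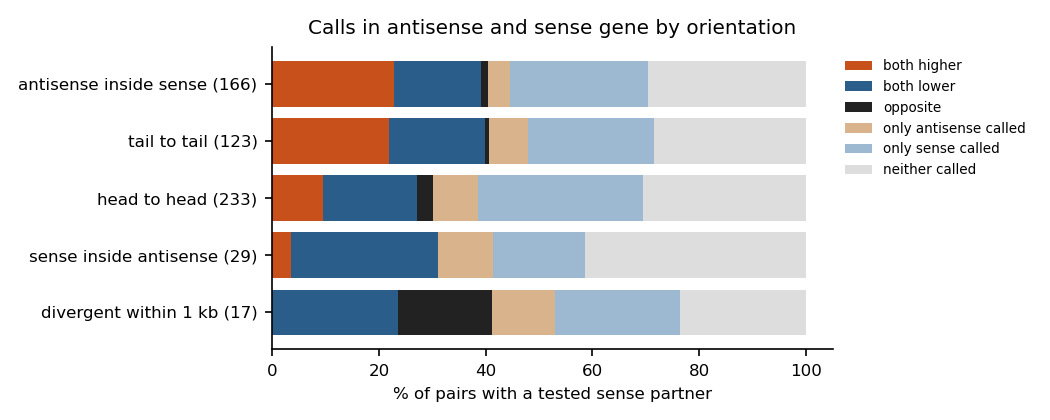
Percentage of pairs with a tested sense partner (x axis, number of pairs in brackets) by the calls of both genes, for 5 orientations of the pair. Opposite calls (black) make up 3 of the 17 divergent pairs and 2 of the 166 pairs with the antisense gene inside the sense gene.

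Of the 10 pairs with the largest common change in 1 direction, all fell. Besides those described, they include DLGAP4-AS1, LMLN-AS1, LMNTD2-AS1 and MAMDC2-AS1. DLGAP4-AS1 had 110.4, 106 and 85.4 in the FOXA1 siRNA samples, against 256, 247 and 269 in the control siRNA samples (log2 fold change -1.35 ± 0.12, adjusted p = 4.71e-10). DLGAP4, a postsynaptic scaffold family gene, had 450.2, 488 and 396 in the FOXA1 siRNA samples, against 1053, 1059 and 1048 in the control siRNA samples (-1.25, adjusted p = 7.43e-14). Summed over all samples, DLGAP4-AS1 had 23.8% of the read number of DLGAP4. MAMDC2-AS1 (-1.24, adjusted p = 1.67e-08) starts inside MAMDC2 and runs head to head across it, and MAMDC2 fell with it (-1.22, adjusted p = 8.77e-15). Of the exon bases of MAMDC2-AS1, 3.08% are shared. LMLN-AS1 (-1.25, adjusted p = 0.000106) fell with LMLN (-1.33, adjusted p = 2.98e-12), a metallopeptidase gene, and LMNTD2-AS1 (-1.40, adjusted p = 1.11e-05) with LMNTD2 (-1.25, adjusted p = 1.68e-07).

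Among the most abundant members, ALDH1A3-AS1 (chr15:100892859-100919283, minus strand) had the highest mean over the 6 libraries. It had 6576, 6879.9 and 6308 in the FOXA1 siRNA samples, against 14369, 14646 and 14321 in the control siRNA samples (log2 fold change -1.13 ± 0.04, adjusted p = 1.15e-17). ALDH1A3 had 10513, 10829 and 10360.4 in the FOXA1 siRNA samples, against 23254, 23317 and 23056 in the control siRNA samples (-1.14, adjusted p = 2.53e-18). Both were lower in all FOXA1 siRNA samples by the same factor within error. In the FOXA1 siRNA samples MIF-AS1 (9592, 10387 and 8737) and RPL30-AS1 (6662, 7301 and 8002) had higher counts than ALDH1A3-AS1. RPL30-AS1 (0.31, adjusted p = 0.000146) and RPL30 (0.31, adjusted p = 3.51e-05), and PRMT5-AS1 (0.29, adjusted p = 1.39e-05) and PRMT5 (0.33, adjusted p = 1.21e-06) rose as pairs. MIF-AS1 and MIF, whose counts are not separable, both stood at 0.29 (adjusted p = 4.60e-05 and 4.67e-05) and lost the call with quantile normalization (0.186 and 0.173). PCBP1-AS1 (-0.07, adjusted p = 0.222) and PCBP1 (-0.10, adjusted p = 0.0522) were not called, but both were at equal totals (0.00262 and 0.000352).

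The 13 pairs called in opposite directions were 10 with the antisense gene lower and its partner higher, and 3 with the antisense gene higher. DSP-AS1 and DSP are an example from the squamous programme, since DSP encodes desmoplakin, which ties keratin filaments to desmosomes. DSP-AS1 (chr6:7540451-7541338, minus strand) had normalized counts of 15.01, 12.9 and 22.5 in the FOXA1 siRNA samples, against 44.7, 31.3 and 44.98 in the control siRNA samples, without overlap (log2 fold change -1.23 ± 0.29, adjusted p = 0.000775). DSP had 14226, 13231 and 14630.3 in the FOXA1 siRNA samples, against 11453, 12554 and 12748 in the control siRNA samples (log2 fold change 0.20 ± 0.05, adjusted p = 0.00125). The rise of DSP was small and lost its call at equal totals (adjusted p = 0.0982) and with quantile normalization (0.522), while the fall of DSP-AS1 kept its call under every alternative run.

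DSP-AS1 and DSP start 237 bases apart and face away from each other. In the RefSeq promoter windows (GRCh38.p14, 250 bases before to 50 after each start), the 300 bases of DSP-AS1 (chr6:7541375-7541674 on the minus strand) and of DSP (chr6:7541421-7541720 on the plus strand) share 254 bases, so the same stretch of DNA precedes a transcript that fell and a transcript that rose. Of the opposite pairs, 5 had such overlapping windows. The windows of DSP-AS1 and DSP are printed 5′ to 3′ on each gene's own strand, with the shared bases in capitals, and one is the reverse complement of the other there.

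DSP-AS1: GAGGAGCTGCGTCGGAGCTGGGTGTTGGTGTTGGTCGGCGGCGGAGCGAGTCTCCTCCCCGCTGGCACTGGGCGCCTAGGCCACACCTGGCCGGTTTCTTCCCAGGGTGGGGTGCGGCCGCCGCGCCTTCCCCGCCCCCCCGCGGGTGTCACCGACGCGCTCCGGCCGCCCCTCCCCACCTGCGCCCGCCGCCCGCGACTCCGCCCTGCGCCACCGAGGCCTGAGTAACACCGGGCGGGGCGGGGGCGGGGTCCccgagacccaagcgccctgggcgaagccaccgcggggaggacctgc
DSP: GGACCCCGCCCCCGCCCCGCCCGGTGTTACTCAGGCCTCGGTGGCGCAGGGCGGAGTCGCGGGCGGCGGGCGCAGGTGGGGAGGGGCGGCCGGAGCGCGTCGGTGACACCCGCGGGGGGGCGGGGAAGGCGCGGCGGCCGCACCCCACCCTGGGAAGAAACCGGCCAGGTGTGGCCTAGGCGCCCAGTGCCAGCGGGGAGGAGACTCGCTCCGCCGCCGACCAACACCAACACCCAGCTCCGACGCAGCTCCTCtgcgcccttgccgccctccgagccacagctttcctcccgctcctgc

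Both windows are rich in G and C (77.7 and 77.0%) and hold 38 and 37 CpG dinucleotides, the make-up of a CpG island promoter. The RefSeq starts lie 86 and 96 bases from the GENCODE 29 starts of DSP-AS1 and DSP. URB1-AS1 (chr21:32392883-32393182 on the plus strand) and URB1 share 220 bases, and TMEM51-AS1 (chr1:15152415-15152714 on the minus strand) and TMEM51 share 201. Their antisense windows follow, again with the shared bases in capitals, because they are the other opposite pairs with the longest shared windows.

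URB1-AS1: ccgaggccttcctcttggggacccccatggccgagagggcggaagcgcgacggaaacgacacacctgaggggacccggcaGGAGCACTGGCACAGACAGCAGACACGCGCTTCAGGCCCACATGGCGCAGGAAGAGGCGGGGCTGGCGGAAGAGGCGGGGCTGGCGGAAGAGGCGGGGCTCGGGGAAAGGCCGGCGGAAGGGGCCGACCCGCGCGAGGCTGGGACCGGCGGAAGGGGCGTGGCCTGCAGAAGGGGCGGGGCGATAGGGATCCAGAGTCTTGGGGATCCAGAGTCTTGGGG
TMEM51-AS1: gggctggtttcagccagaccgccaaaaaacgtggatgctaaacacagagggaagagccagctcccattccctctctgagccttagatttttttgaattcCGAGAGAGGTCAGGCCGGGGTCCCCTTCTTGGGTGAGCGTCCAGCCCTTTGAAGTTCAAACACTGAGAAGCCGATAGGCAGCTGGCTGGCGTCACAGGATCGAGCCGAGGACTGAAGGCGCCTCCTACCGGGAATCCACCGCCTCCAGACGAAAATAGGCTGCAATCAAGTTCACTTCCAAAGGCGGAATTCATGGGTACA

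URB1-AS1 starts 104 bases from URB1, a gene of large ribosomal subunit assembly. It had 41.8, 39.5 and 30.8 in the FOXA1 siRNA samples, against 60.9, 69.6 and 47.1 in the control siRNA samples (log2 fold change -0.64 ± 0.22, adjusted p = 0.0152). URB1 had 1817, 1707 and 1706 in the FOXA1 siRNA samples, against 993, 1008 and 980.2 in the control siRNA samples (0.81, adjusted p = 2.06e-12). The partner's groups were far apart, and those of the antisense gene closer. URB1-AS1 lost its call without FOXA1 siRNA replicate 3 (adjusted p = 0.0653), without control siRNA replicate 1 or 2 (0.0511 and 0.0928) and with quantile normalization (0.0859). TMEM51-AS1 had 57.9, 66.8 and 43.9 in the FOXA1 siRNA samples, against 101, 88.8 and 100.4 in the control siRNA samples (log2 fold change -0.79 ± 0.18, adjusted p = 0.000549), and TMEM51 had 228, 244 and 230.1 in the FOXA1 siRNA samples, against 170.2, 192 and 179 in the control siRNA samples (0.38, adjusted p = 0.00387). In both genes the groups stood apart, on opposite sides. The RefSeq start of TMEM51-AS1 lies 773 bases from its GENCODE 29 start, and that of URB1-AS1 lies 3 bases from it.

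PSMG3-AS1 (chr7:1570073-1589626, plus strand) had the fall with the smallest p among these pairs, with 121, 117 and 97.3 in the FOXA1 siRNA samples, against 248, 240.1 and 244 in the control siRNA samples (log2 fold change -1.13 ± 0.12, adjusted p = 7.76e-09). PSMG3, a chaperone of proteasome assembly, had 695, 757 and 701 in the FOXA1 siRNA samples, against 651, 612 and 558 in the control siRNA samples (0.24, adjusted p = 0.00667). It lost its call without control siRNA replicate 3 (adjusted p = 0.066) and at equal totals (0.0951). OTUD6B-AS1 starts 7 bases from OTUD6B, a deubiquitinase gene, and had 292, 249 and 305 in the FOXA1 siRNA samples, against 343, 319 and 346 in the control siRNA samples (log2 fold change -0.26 ± 0.09, adjusted p = 0.0239), while OTUD6B had 295, 251 and 329 in the FOXA1 siRNA samples, against 156, 156 and 126 in the control siRNA samples (0.99, adjusted p = 6.24e-08). OTUD6B-AS1 was near its partner in the FOXA1 siRNA samples and above it in all control siRNA samples, in normalized counts not divided by length. Its call was lost without FOXA1 siRNA replicate 2 (0.166) and without control siRNA replicate 1 or 3 (0.0706 and 0.0791).

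RCCD1-AS1 had 131, 156 and 128 in the FOXA1 siRNA samples, against 238, 231 and 263 in the control siRNA samples (log2 fold change -0.82 ± 0.12, adjusted p = 1.00e-06), and RCCD1 had 0.33, adjusted p = 0.00279. DUT-AS1 (-0.47, adjusted p = 0.00122) fell beside DUT (0.53, adjusted p = 8.41e-09), which encodes dUTPase, the enzyme that keeps uracil out of DNA. PPP1R12A-AS2 (-0.70, adjusted p = 7.28e-05) fell beside PPP1R12A (0.25, adjusted p = 0.00181), the myosin phosphatase targeting subunit, and PRKCH-AS1 (-0.59, adjusted p = 0.000129) beside PRKCH (0.17, adjusted p = 0.0125), a protein kinase C gene of differentiating epithelia. PRKCH lost its call at equal totals (adjusted p = 0.296), with quantile normalization (0.129) and without control siRNA replicate 3 (0.0567). CHMP3-AS1, the opposite pair with the smallest contrast and named after its values were seen, had 807, 821 and 900.2 in the FOXA1 siRNA samples, against 986, 951 and 947 in the control siRNA samples (-0.19, adjusted p = 0.0146), and CHMP3, an ESCRT-III subunit, had 0.12, adjusted p = 0.049.

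In 3 pairs the antisense gene rose and the sense gene fell. LMO7-AS1 (chr13:75604700-75635994, minus strand) had 229, 238 and 262 in the FOXA1 siRNA samples, against 192, 202 and 185 in the control siRNA samples (log2 fold change 0.33 ± 0.10, adjusted p = 0.00942). LMO7, a LIM-domain protein of cell junctions, had 733, 653 and 769 in the FOXA1 siRNA samples, against 1351, 1308 and 1447 in the control siRNA samples (-0.93, adjusted p = 4.09e-12). The sense gene fell by much more than the antisense gene rose, and the call of LMO7-AS1 was lost at equal totals (adjusted p = 0.0627). PDK1-AS1 had 925, 961 and 1107 in the FOXA1 siRNA samples, against 675, 681 and 763 in the control siRNA samples (log2 fold change 0.50 ± 0.07, adjusted p = 2.05e-06), and PDK1, a kinase that restrains pyruvate dehydrogenase, had 312, 280.0 and 312 in the FOXA1 siRNA samples, against 372, 362 and 348 in the control siRNA samples (-0.26, adjusted p = 0.0144). PDK1 lost its call without FOXA1 siRNA replicate 2 (0.079) or control siRNA replicate 1 (0.0546). GPC1-AS1 (0.19, adjusted p = 0.0239) rose beside GPC1 (-0.22, adjusted p = 0.000972), a glypican. GPC1-AS1 lost its call without FOXA1 siRNA replicate 2 (0.109), without control siRNA replicate 1 or 2 (0.0603 and 0.102), at equal totals (0.289) and with quantile normalization (0.0626).

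**Figure D5:**
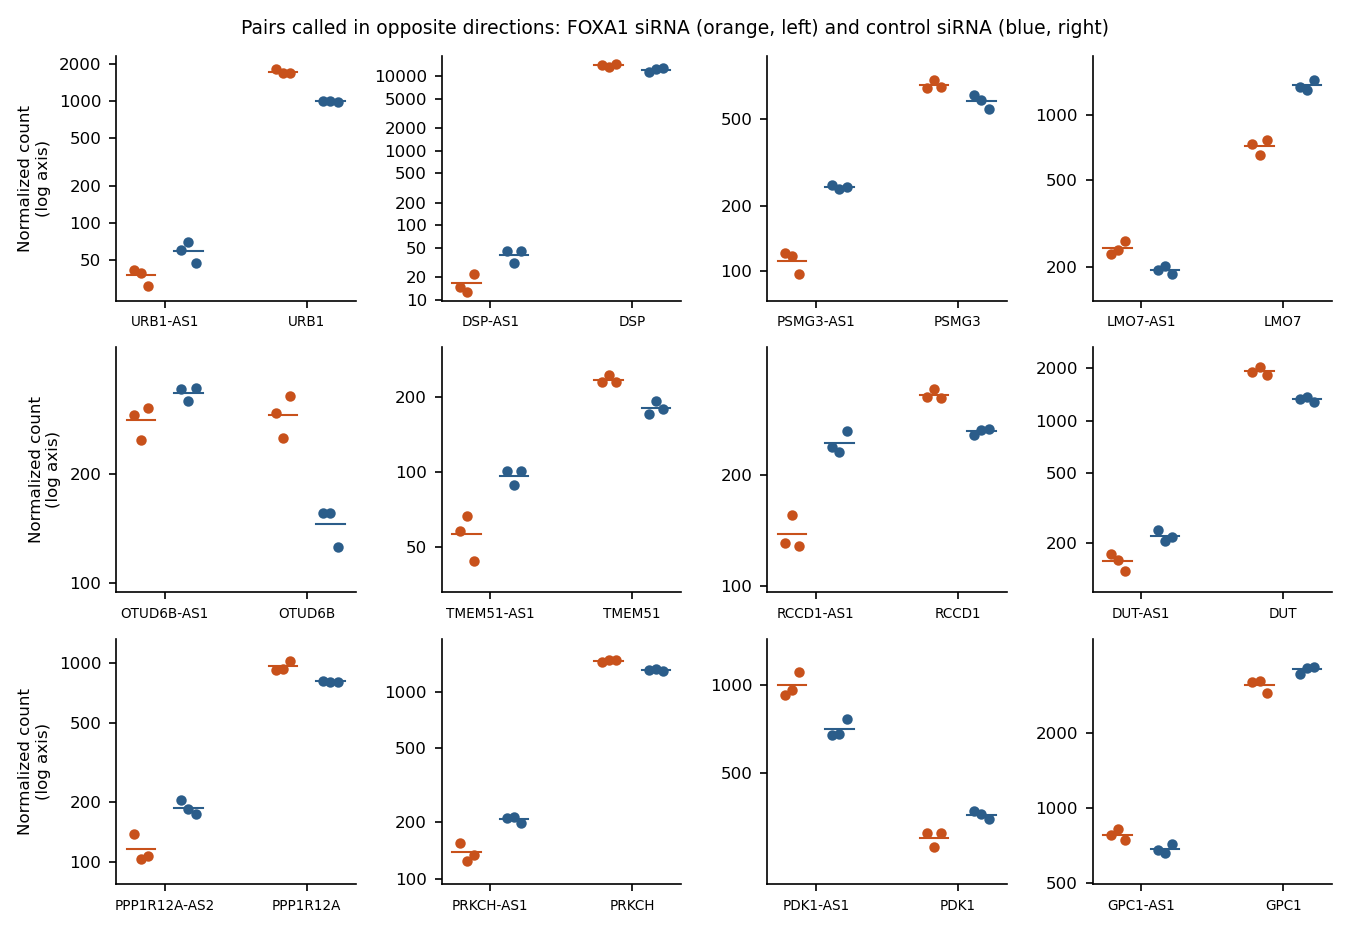
Normalized counts (log y axis) of 12 of the 13 pairs called in opposite directions, the antisense gene on the left and the sense gene on the right of each panel. Points are libraries and bars group means, with FOXA1 siRNA in orange to the left of control siRNA in blue; in DSP the 2 groups are close (14029 and 12252 on average), and in LMO7 they are far apart (718 and 1369).

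Over all 12 pairs in that plot the log2 ratio of antisense to sense counts did not overlap between the groups. The ratio differed by -1.45 for URB1-AS1, -1.43 for DSP-AS1 and -1.37 for PSMG3-AS1, and by 1.26 for LMO7-AS1, FOXA1 siRNA minus control siRNA. The pairs were chosen for this difference, so it is given without a test. An exact test over 3 against 3 samples cannot go below p = 0.1.

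Pairs that share promoter sequence were also counted as a whole. Of the pairs with a RefSeq window for both genes, 92 had overlapping windows, and of these 14 members were higher and 21 lower, with 21 pairs called in the same direction and 5 in opposite directions. In the 289 pairs whose windows do not overlap, 54 members were higher and 74 lower, with 96 and 4. Of all genes tested 51.8% were called, 26.8% higher and 25% lower. The difference between pairs with and without overlapping windows was not tested. The word TGTTTAC, a core to which forkhead factors bind, was searched together with its close relative TGTTTGC and with a further variant of it, TATTTAC, on both strands of the windows, and a place matched by more than 1 word counted its window once. A window of 438 members was listed, and 38 of these members (8.68%) had a word: 8 of 73 higher members (11.0%), 6 of 107 lower ones (5.61%) and 24 of 258 not called (9.30%). Of all 27305 genes with a window, 11.5% had a word in any of their windows. Counted by window, it was 7.51% of the 519 windows of members and 9.57% of all 35116 windows. A word is a match of letters in a window of 300 bases and not a measured binding site. None of the DSP-AS1, DSP, URB1-AS1, URB1, TMEM51-AS1 and TMEM51 windows held one.

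In the 17 divergent pairs, which share no exon base, 9 antisense members fell and 0 rose (52.9% called, against 51.8% of all genes tested). At equal totals 10 fell and 0 rose, and with quantile normalization 5 fell and 1 rose. FLRT2-AS1 (-1.03, adjusted p = 5.25e-07) fell with FLRT2 (-1.21, adjusted p = 1.32e-16), and FZD10-AS1 (-0.81, adjusted p = 5.55e-06) with FZD10 (-1.33, adjusted p = 3.41e-11), a Wnt receptor. SCAMP1-AS1 (-0.59, adjusted p = 0.00959) and TRAM2-AS1 (-0.61, adjusted p = 0.00912) fell with SCAMP1 (-0.34) and TRAM2 (-0.44). RTCA-AS1 (-0.93, adjusted p = 0.00324) fell where RTCA, an RNA cyclase, was at -0.05, adjusted p = 0.583. These 5 members were chosen after their values were seen.

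A list of 52 antisense RNAs with published roles, drawn up with earlier results of these data known, had 36 tested genes, of which 7 were higher and 10 lower (47.2% called, against 51.8% of all genes tested, median -0.10). The split was 5 and 12 at equal totals and 4 and 9 with quantile normalization. CDKN2B-AS1, also known as ANRIL, spans the gene of the cell cycle inhibitor p15 and had 1471, 1515 and 1188 in the FOXA1 siRNA samples, against 1155, 1054 and 1072 in the control siRNA samples (log2 fold change 0.34 ± 0.08, adjusted p = 0.000998). CDKN2B had 811, 872 and 837 in the FOXA1 siRNA samples, against 482, 458 and 468 in the control siRNA samples (0.84, adjusted p = 6.54e-11). Both rose, the sense gene by more, and the pair shares no exon base.

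At the hypoxia factor gene HIF1A, HIF1A-AS1 (-0.39, adjusted p = 5.25e-07) and HIF1A-AS3 (-0.39, adjusted p = 1.10e-07) fell with HIF1A (-0.38, adjusted p = 1.33e-08). HIF1A-AS3 had 2748, 2645 and 2711 in the FOXA1 siRNA samples, against 3612, 3454 and 3536 in the control siRNA samples. These groups did not overlap, and 3 calls with 1 partner are not 3 independent changes. SLC7A11-AS1, beside the transporter that sulfasalazine blocks, had 113, 97.9 and 108 in the FOXA1 siRNA samples, against 142, 131 and 133 in the control siRNA samples (log2 fold change -0.35 ± 0.13, adjusted p = 0.0315). SLC7A11 had 1080.5, 1081 and 1194 in the FOXA1 siRNA samples, against 1240.2, 1121 and 1195 in the control siRNA samples (-0.08, adjusted p = 0.27). The antisense groups stood apart and those of SLC7A11 overlapped, but neither call was stable. SLC7A11-AS1 lost its call without FOXA1 siRNA replicate 2 (adjusted p = 0.112), without control siRNA replicate 1, 2 or 3 (0.1, 0.0515 and 0.0593) and with quantile normalization (0.186). SLC7A11 was called lower at equal totals (0.015) and with quantile normalization (0.0406).

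HOXA-AS2, which lies in the HOXA cluster of developmental transcription factor genes and has no single partner, had 77.2, 106 and 91.3 in the FOXA1 siRNA samples, against 229, 209 and 215 in the control siRNA samples (log2 fold change -1.25 ± 0.13, adjusted p = 7.70e-09). This was the largest fall among the listed RNAs after ITGB2-AS1. HOXA-AS3 (-0.50, adjusted p = 0.132) and HOXB-AS3 (-0.49, adjusted p = 0.148) were not called. MYL12-AS1, another of the 5 members without a partner row, fell (-0.27, adjusted p = 0.00145), and ZNF295-AS1 had -0.13, adjusted p = 0.746.

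OIP5-AS1, an abundant and widely expressed noncoding RNA, had 1891, 1915 and 1958 in the FOXA1 siRNA samples, against 1929, 1962 and 1978 in the control siRNA samples (log2 fold change -0.03 ± 0.05, adjusted p = 0.697), while OIP5, a centromere factor, rose (0.63, adjusted p = 4.92e-06). OIP5-AS1 was called lower at equal totals (adjusted p = 0.0421). THAP9-AS1 rose, with 454, 459.9 and 454 in the FOXA1 siRNA samples, against 339.5, 352 and 311 in the control siRNA samples (log2 fold change 0.45 ± 0.08, adjusted p = 4.05e-05), and THAP9 was not called (-0.25, adjusted p = 0.214). PXN-AS1 (0.32, adjusted p = 1.88e-05) rose with PXN (0.34, adjusted p = 2.76e-06), the focal adhesion protein paxillin, and TMPO-AS1 (0.39, adjusted p = 0.000646) with TMPO (0.45, adjusted p = 1.35e-07), a nuclear lamina protein. SBF2-AS1 (-0.38, adjusted p = 0.00113) fell with SBF2 (-0.37, adjusted p = 8.16e-06), and FGD5-AS1 fell (-0.24, adjusted p = 0.000789) where FGD5 was too low to be tested.

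Of the other listed RNAs among the members, RUSC1-AS1 (0.18, adjusted p = 0.00631) and MCM3AP-AS1 (0.18, adjusted p = 0.0296) rose, and GAS6-AS1 (-0.30, adjusted p = 0.0103) and VPS9D1-AS1 (-0.26, adjusted p = 0.0203) fell. All 4 calls were lost under some alternative. RUSC1-AS1 lost it at equal totals (0.194) and with quantile normalization (0.103), and GAS6-AS1 without control siRNA replicate 3 (0.0659). MCM3AP-AS1 lost it without FOXA1 siRNA replicate 2 (0.0857), without control siRNA replicate 1 or 2 (0.0514 and 0.121) and at equal totals (0.321), and VPS9D1-AS1 without FOXA1 siRNA replicate 2 (0.0669) or control siRNA replicate 2 or 3 (0.105 and 0.0927). Another 12 were not called, with log2 fold changes between -0.23 (STARD4-AS1) and 0.21 (LOXL1-AS1), among them AFAP1-AS1 (-0.01), EGFR-AS1 (0.03) and ZEB1-AS1 (0.06).

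A1BG-AS1, head to head with the plasma glycoprotein gene A1BG (28.0% of its exon bases shared), had 23.6, 31.9 and 32.02 in the FOXA1 siRNA samples, against 43.7, 39.3 and 50.2 in the control siRNA samples (log2 fold change -0.60 ± 0.24, adjusted p = 0.0377). A1BG was at a mean below 10 in these cells and not tested, with 8.58, 8.35 and 3.56 in the FOXA1 siRNA samples, against 16.2, 14.1 and 8.37 in the control siRNA samples. The call of A1BG-AS1 was lost without FOXA1 siRNA replicate 1 (adjusted p = 0.147), without control siRNA replicate 1 or 3 (0.0771 and 0.138) and with quantile normalization (0.171).

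Some members varied more within a group than between groups. EEF1A1-AS1, at the gene of a translation elongation factor, had 1532, 1345 and 5.93 in the FOXA1 siRNA samples, against 1193, 7.06 and 17.8 in the control siRNA samples. Both groups held values over 1000 and below 10, and the difference was not called (log2 fold change 2.10 ± 3.33, adjusted p = 0.648). EEF1A1 had 202762, 203093 and 221804 in the FOXA1 siRNA samples, against 170592, 157418 and 159729 in the control siRNA samples, without such jumps. PRPF31-AS1 had 557, 83.5 and 334 in the FOXA1 siRNA samples, against 449.8, 176 and 393 in the control siRNA samples (-0.33, adjusted p = 0.796), with FOXA1 siRNA replicate 2 lowest, as it was for PRPF31, a splicing factor (965, 275 and 512 in the FOXA1 siRNA samples, against 835, 604 and 696 in the control siRNA samples). Both were noticed after their values were seen.

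Just inside the level of 20 that chose the members stood IRX4-AS1 (mean 20.05) and WEE2-AS1 (20.1), and just outside it ZBTB46-AS2 (19.8) and KLC1-AS1 (19.8). IRX4-AS1, for example, had 11.8, 22.01 and 13.05 in the FOXA1 siRNA samples, against 33.3, 17.1 and 23.01 in the control siRNA samples.

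Other noncoding genes named by position were counted the same way. Of all genes tested with a mean of 20 or more, 55.2% were called, a share not matched for level to these families. Of 161 divergent transcripts (ending -DT), 22 were higher and 34 lower (34.8% called, median -0.06), with 16 and 43 at equal totals and 38 and 21 with quantile normalization. The largest called changes at means of 50 or more were SMC5-DT (-1.26, adjusted p = 1.10e-08) and FAM111A-DT (-1.05, adjusted p = 0.000144) downwards, and MIF4GD-DT (1.00, adjusted p = 8.36e-07) and ZNF132-DT (0.91, adjusted p = 0.000327) upwards. Of 11 genes ending in -AS without a digit, 0 were higher and 4 lower by limma (36.4% called). They were led by HOXA11-AS (-0.91, adjusted p = 0.000348) and KRT7-AS (-0.67, adjusted p = 1.04e-07). The 6 genes ending in -OT had 2 higher and 2 lower (66.7% called), and the 4 ending in -IT 1 and 1 (50% called).

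Of 30 genes of RNA turnover, which trim, end or degrade antisense and promoter RNAs, 18 were higher and 2 lower (66.7% called, against 51.8% of all genes tested, median 0.21), with 12 and 5 at equal totals and 13 and 5 with quantile normalization. EXOSC9 (0.74, adjusted p = 2.31e-09), a core subunit of the exosome, and ZCCHC8 (0.63, adjusted p = 4.05e-05), a scaffold of its nuclear adaptor, rose most. INTS9, of the Integrator complex, rose by 0.58 (adjusted p = 1.11e-06). EXOSC6 (-0.37, adjusted p = 0.00649) and EXOSC4 (-0.27, adjusted p = 0.00229), subunits of the same exosome ring, fell. Whether these changes bear on the antisense members was not tested.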

How the data were processed

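Per the labels' protocols, total RNA was purified with the Reliaprep RNA Miniprep System and the NEBNext Ultra RNA kit was used for the libraries. HISAT2, DESeq2 and the builds GRCh38 and GRCm38 are named in the submitters' processing notes, without versions or roles. Per the file headers, the authors deposited a normalized signal for every gene in every library (a count over the library's size factor) and its mean. The other columns the authors deposited are a log2 fold change and its standard error, a test score, the p-value and the adjusted p-value. Of 61862 lines, 3 were malformed and were left out. In all 6 libraries 100% of the remaining values were whole multiples of what 1 read is worth (tolerance 0.01 read), which gave back the reads (size factors 0.843 to 1.32), and a broken line holds shifted values for the second replicate of both groups.

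Differences were tested with limma 3.58.1 (R 4.3.3) after taking log2 of the normalized count plus 1, with eBayes trend and robust, for the 18460 genes with a mean of at least 10, so fold changes of low genes are understated. Benjamini-Hochberg adjustment ran over all genes tested, with a threshold of 0.05, and an adjusted p printed with no setting or tool beside it comes from this fit. All 615 members passed the mean of 10, and their partners did in 576 pairs. Orientation and shared exon bases came from GENCODE 29, which may differ from the annotation behind the counts, and promoter windows from RefSeq. The limma fit and the ratio spread were tested on simulated data. Alternatives were pseudocounts of 0.5 and 5, no filter, a filter at a mean of 50, libraries set to equal totals, quantile normalization, limma without trend and robust, a replicate block, each replicate left out, a threshold of 0.01, other member levels, pairs without shared exons, and edgeR 4.0.16 (quasi-likelihood, TMM) and DESeq2 1.42.0 on the recovered reads.

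Named members were the 12 largest rises and falls among called members without overlap between groups, the 12 opposite pairs with the largest contrast, the 10 pairs with the largest common change, the 6 most abundant members (1 of which is not reported here), A1BG-AS1, the neighbours of the level of 20, the members of the list of published antisense RNAs, and up to 2 genes each way, with a mean of at least 50, of the other lists. Members, lists and rules were chosen with earlier results of these data known.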

Additional observations from a re-analysis of the deposited data

How the results depend on the processing

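The count of called members stayed between 183 and 286 over the alternatives, against 262, and that of pairs called in the same direction between 134 and 210, against 191, except for 23 when pairs were limited to those without shared exon bases. Opposite pairs, 13 in the report, numbered 8 at equal library totals, 8 without trend and robust, 7 at a threshold of 0.01 and 5 without shared exon bases, and 9 to 16 otherwise. The limit to pairs without shared exon bases tests fewer pairs, and the cause of the other differences was not tested. Leaving out a replicate gave 218 to 247 called members, 157 to 180 same and 9 to 13 opposite pairs.

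Replicates with the same number did not deviate together (correlations of -0.01 to 0.01), so no pairing by number was seen. Whether they were handled together cannot be told from these values. With a replicate block 253 members were called, 184 pairs in the same direction and 12 in opposite directions.

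For the 144 genes followed, 2251 of 2417 values kept direction and side of the threshold, 109 lost the call, 25 gained it and 32 changed sign, none of them for a called gene. At equal totals the log2 fold change turned for EGFR-AS1 (-0.0727), ZEB1-AS1 (-0.0292), EMC3 (-0.0376), RUSC1 (-0.0707), STARD4 (-0.0971). With quantile normalization it turned for DDX11-AS1 (0.0797), FAM83A-AS1 (0.0488), UBE2Q1-AS1 (0.0167), and for STARD4 with edgeR (-0.0176) and DESeq2 (-0.0114). Leaving out replicates gave ranges across 0 for AFAP1 (-0.045 to 0.0283), AFAP1-AS1 (-0.0563 to 0.0347), DDX11-AS1 (-0.295 to 0.132), EGFR-AS1 (-0.0687 to 0.15), EPB41L4A-AS1 (-0.0943 to 0.0234), RUNDC3A (-0.0114 to 0.335), RUSC1 (-0.0255 to 0.0669), STARD4 (-0.055 to 0.0665), TTN-AS1 (-0.124 to 0.267), ZEB1-AS1 (-0.192 to 0.243). DESeq2 did not call A1BG-AS1 (0.0988), GPC1-AS1 (0.0545), RORA-AS1 (0.0676), SLC7A11-AS1 (0.0720), ITGB2 (0.0561), MCM3AP-AS1 (0.0737) and MCM3AP (0.0892), given as adjusted p.

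Depth limits the low members, where single reads move the fold change, and 3 samples a group limit every test. Whether strand was kept is not given in the sources used here, so shared reads could not be removed from any count.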
